A study of Homo sapiens with 8 samples.

Results

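The interferon-stimulated genes described here are 50 listed genes, matched by symbol among the 58884 gene identifiers of the deposited tables, and all 50 were found. They were followed in bulk RNA-seq of 4 established lines of human thyroid cancer, 8 libraries in all and 1 for each group, so no group had a replicate. The 8505C and CAL-62 lines, both from anaplastic carcinoma, each received an siRNA against NR1D1 or a control siRNA. TPC-1, from a papillary carcinoma, and FTC-133, from a follicular carcinoma, each received a vector that overexpresses NR1D1 or an empty vector. The labels give the control libraries the genotype WT, the siRNA libraries NR1D1 knockdown and the vector libraries NR1D1 overexpression. The labels name no interferon treatment. Each treatment was used in its own pair of lines, so an effect of the siRNA against that of the vector cannot be told apart from a difference between those lines.

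Interferons are secreted proteins that warn cells of infection. Type I and type III interferons act through the kinases JAK1 and TYK2 on the complex ISGF3, which includes STAT2 and IRF9 and binds interferon-stimulated response elements (ISREs) in promoters, while interferon gamma acts mainly at gamma-activated sites (GAS). The induced proteins block viral entry, stop viral translation, degrade RNA, tag proteins with ISG15 and sense foreign nucleic acid, and many tumour lines express a share of them without infection. NR1D1 is the gene of REV-ERB alpha, a repressor that forms part of the circadian clock.

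NR1D1 itself lay on the labelled side in every line, but by little in the vector lines. It was 18.2 TPM in 8505C control cells and 11.2 after the siRNA, and 22 and 10.1 in CAL-62. NR1D1 vector libraries held 208.7 against 190 in TPC-1 and 137 against 105 in FTC-133. The ratios were 0.616, 0.462, 1.1 and 1.3. On the log2(value + 1) scale NR1D1 was at 0.13 in TPC-1 and 0.37 in FTC-133, inside the middle 50% of all measured genes there (-0.34 to 0.32 and -0.33 to 0.45), so neither vector library stood out for NR1D1. Levels are given as TPM, length-corrected values that were rescaled to a sum of 1000000 in each library. The 4 tables were normalized separately, so levels are compared across lines only as a description. Recovered depth was between 12.86 and 23.18 in units of 1000000 reads. Mitochondrial transcripts took 57.2% of the CAL-62 control library and 67.85% of its siRNA library, against 15.68% to 29.28% in the other 6 libraries, and the log2 ratio of the median CAL-62 gene was -0.28. Of the immune markers, PTPRC was at most 0.056 and CLEC4C was listed at 0 in all 8 libraries. CD14 was 22.3 and 85.2 in the 8505C libraries and 1.01 and 12.2 in the CAL-62 libraries, which carried the summed level of the 8 immune markers from 24.1 to 85.9 in the former and from 1.33 to 12.4 in the latter. In the vector lines that sum lay between 0.507 and 2.31. The control and treated sums of the 5 fibroblast markers were 7.83 and 21.9 in 8505C, 98.1 and 527 in CAL-62, 4.03 and 4.98 in TPC-1, and 2555 and 1700 in FTC-133, and COL1A1 alone was 58.8 and 456 in CAL-62. DCN was listed at 0 in all CAL-62 and TPC-1 libraries. The sum of the 3 endothelial markers went from 49.5 to 145 in 8505C, nearly all of it CDH5, and was at most 0.687 in the other lines. For the 5 epithelial markers the sums were 878 and 1361, 909 and 747, 183 and 350, and 64.5 and 179 in the same order of lines. The part of these markers, or of cells that carry them, in the ratios of the members was not tested. Among thyroid markers PAX8 was 0.503 in 8505C control cells and 53.7, 330 and 78.9 in those of CAL-62, TPC-1 and FTC-133, NKX2-1 was 63.4 in 8505C and 14.2 in FTC-133 and listed at 0 in the other 2, and thyroglobulin (TG) was at most 0.689 in any library. In such bulk libraries a lower value can mean fewer cells with a transcript or less of it per cell, and these cannot be told apart.

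Most promoters at hand carried the ISRE. RefSeq promoters (GRCh38.p14), windows of 250 bases before to 50 bases after a start site, were at hand for 39 of the 50 members. The core ISRE letters, GAAA and GAAA with any 2 bases between them, searched on both strands, lay in 26 of these 39, against 4.38% of 27305 genes in the same table. A longer form, the core followed by C, lay in 20 of 39 against 0.952%. The GAS letters TTCNNNGAA lay in 13 of 39 against 9.38%. The stretches below show the ISRE of 6 genes whose level was higher in the treated library of all 4 lines (IFIT1, ISG20, MX1, DDX60, GBP1 and EPSTI1) and of 3 genes (IFIT5, IFITM1 and PARP9) that were lower after the siRNA and higher with the vector on this scale. Each is read 5′ to 3′ on the strand of its gene, and capitals mark the core letters or, where the element lies on the other strand, TTTC and TTTC with any 2 bases between them.
IFIT1 (chr10:89392492-89392544, plus strand): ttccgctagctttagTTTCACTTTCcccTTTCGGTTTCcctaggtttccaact
ISG20 (chr15:88638932-88638971, plus strand): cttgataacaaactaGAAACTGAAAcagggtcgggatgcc
MX1 (chr21:41431839-41431878, plus strand): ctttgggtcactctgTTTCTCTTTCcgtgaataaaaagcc
DDX60 (chr4:168318781-168318855, minus strand): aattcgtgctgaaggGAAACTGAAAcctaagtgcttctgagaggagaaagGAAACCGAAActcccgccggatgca
GBP1 (chr1:89065311-89065350, minus strand): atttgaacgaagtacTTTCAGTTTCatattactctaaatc
EPSTI1 (chr13:42992267-42992306, minus strand): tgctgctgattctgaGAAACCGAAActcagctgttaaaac
IFIT5 (chr10:89414508-89414567, plus strand): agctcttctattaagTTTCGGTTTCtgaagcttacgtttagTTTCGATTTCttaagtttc
IFITM1 (chr11:313985-314024, plus strand): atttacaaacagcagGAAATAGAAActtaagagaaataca
PARP9 (chr3:122564317-122564356, minus strand): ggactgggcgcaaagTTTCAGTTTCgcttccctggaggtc
IFIT1, DDX60 and IFIT5 hold 2 core matches each in these stretches and the others 1, and the first match begins 116 bases before the start site in IFIT1, 50 in EPSTI1 and 40 in IFITM1. In MX1 and EPSTI1 the ISRE overlaps GAS letters. PARP9 and DTX3L have start sites 38 bases apart on opposite strands, and the PARP9 element spans the start site of DTX3L, so both genes hold it in their windows. On this scale genes of both directions thus carried the same core letters. Without mitochondrial genes IFIT5, IFITM1 and PARP9 were higher in CAL-62, at 0.36, 0.18 and 0.35 on the log2 scale. GBP3 and DTX3L kept their direction on that scale and also hold the core letters. A match in these windows describes the sequence and not a bound site.

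A few membrane proteins led the members in the 8505C control library. The 3 IFITM genes, which encode membrane proteins that hinder virus entry, supplied most of the summed level in 8505C. The sum over the 50 members was 6752 TPM in 8505C, 1085 in CAL-62, 1241 in TPC-1 and 1517 in FTC-133, and without the IFITM genes it was 1001, 630, 659 and 1280. FTC-133 was thus the highest line outside the IFITM family, and CAL-62 was the lowest on both sums. The median member was at 9.3, 4.99, 8.59 and 11.7 TPM in that order. With mitochondrial genes taken out before rescaling these medians were 13.2, 11.7, 10.4 and 14.2, so the low place of CAL-62 depended on the scale. At least 1 TPM was reached by 43, 40, 37 and 43 of the 50 members. The highest control level fell in 8505C for 20 members, in FTC-133 for 16, in TPC-1 for 12 and in CAL-62 for 2, and without mitochondrial genes for 17, 15, 10 and 8.

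**Figure D1:**
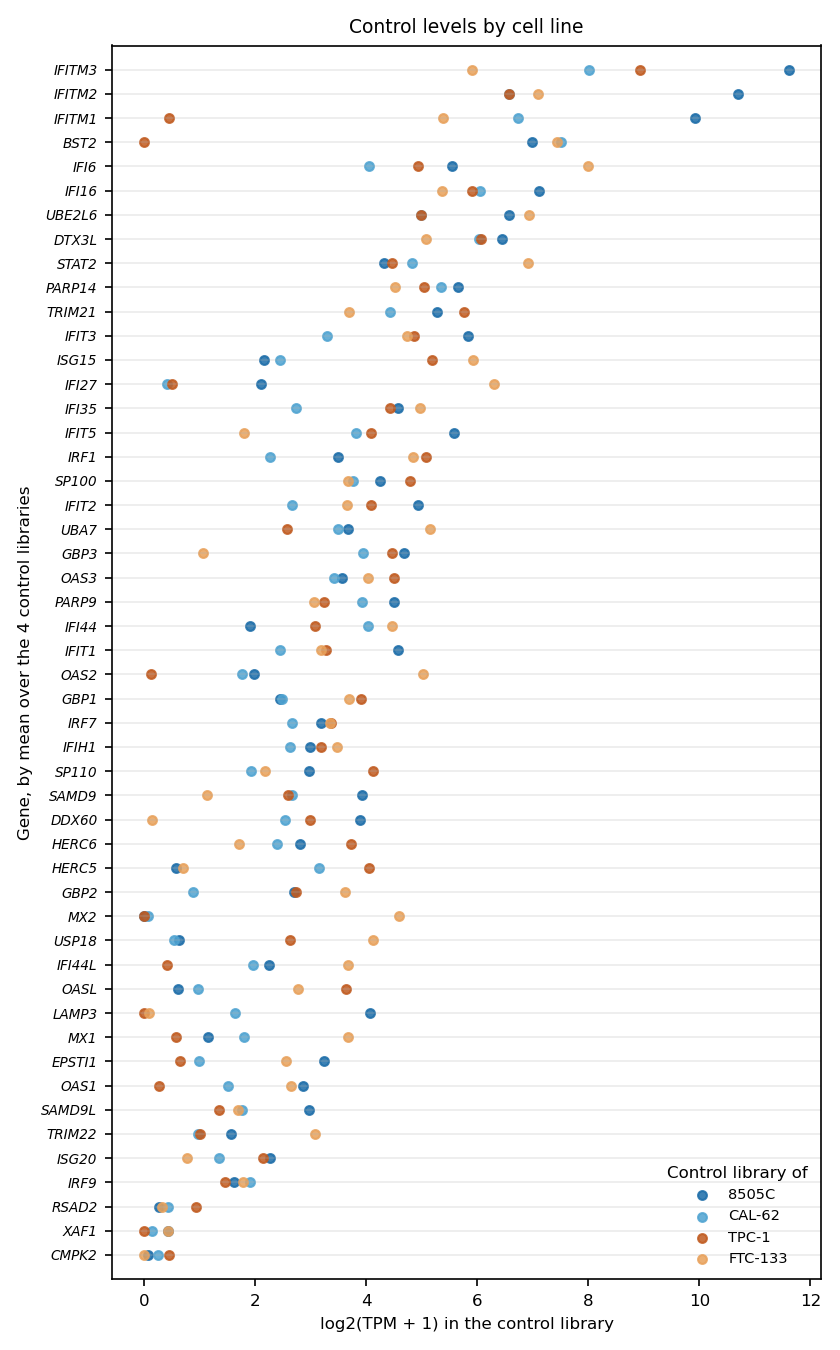
Level of each of the 50 members in the control library of each line, as log2(TPM + 1), with genes ordered by their mean. IFITM3, IFITM2 and IFITM1 top the order, and BST2 and IFITM1 show the widest gaps between lines, with TPC-1 at 0 and 0.364 TPM.

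Some single genes differed far more between lines than the sums did, and others less. The highest control level over the lowest was only 1.57 for IRF9 and 1.73 for IRF7. BST2, the tetherin that holds budding virions at the cell surface, was at 125, 180 and 171 TPM in 8505C, CAL-62 and FTC-133 control cells and was listed at 0 in TPC-1. MX2, a nuclear-pore-associated antiviral GTPase, was at 23.2 in FTC-133 and at 0.0429 or less in the other 3 lines, and IFI27 was at 77.9 in FTC-133 against 3.3 or less. LAMP3, a lysosomal membrane glycoprotein, was at 15.7 in 8505C, 2.1 in CAL-62, 0.061 in FTC-133 and listed at 0 in TPC-1. The lines thus differed in BST2, MX2, IFI27 and LAMP3 before any change of NR1D1. Most members, however, reached 1 TPM in the control libraries of all lines. The count at that level was 43 in 8505C, 40 in CAL-62, 37 in TPC-1 and 43 in FTC-133.

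Most members were higher in the treated library than in the control library of their line, in the siRNA lines and in the vector lines alike. A member counted as measured in a line when the mean of its 2 libraries was at least 1 TPM, and ratios are of treated over control on log2(value + 1), which understates changes of low genes. In 8505C 31 of 44 measured members were higher after the siRNA, where 52.9% of all 16499 measured genes were. In CAL-62 it was 31 of 43 against 32.6% of 16230 genes. With the vector it was 32 of 40 in TPC-1 against 46.8% of 16175 genes, and 34 of 44 in FTC-133 against 54.8% of 16501. The members were thus on the higher side in every line, and in CAL-62 they were so while most genes were on the lower side. The median member had a log2 ratio of 0.31 in 8505C, 0.57 in CAL-62, 0.38 in TPC-1 and 0.57 in FTC-133, and the median of all measured genes was 0.05, -0.28, -0.02 and 0.05.

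**Figure D2:**
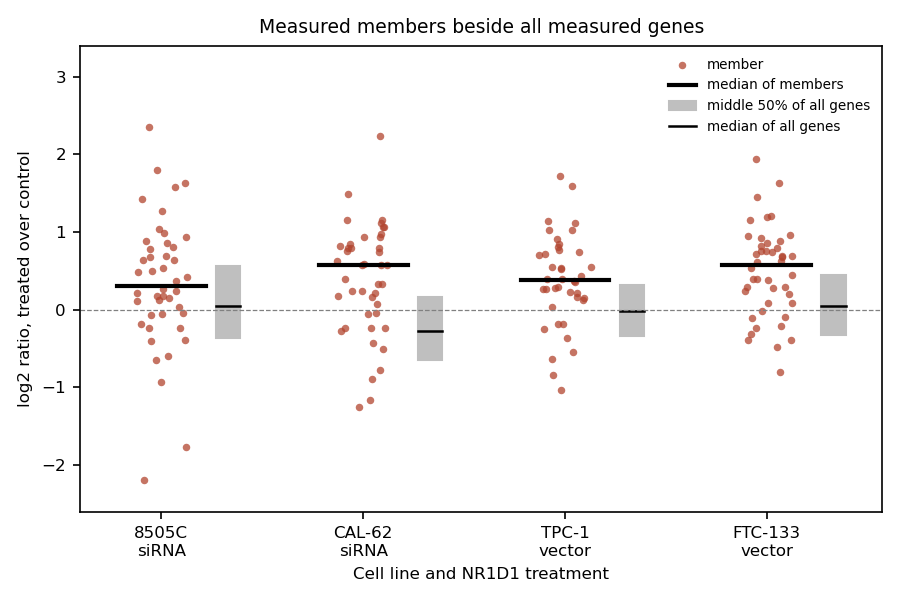
Log2 ratio of treated over control for each measured member (points, with their median as a thick bar) beside the middle 50% and the median of all measured genes, for each line. The median of the members lies above that of all genes in all 4 lines, at 0.31, 0.57, 0.38 and 0.57.

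Large ratios were fewer and fell on different genes in different lines. At 2-fold or more the higher members numbered 7 of 44 in 8505C (IFIT1, IFIT2, ISG15, UBA7, OAS3, ISG20 and LAMP3), where 11.9% of all genes passed that fold. They numbered 7 of 43 in CAL-62 (HERC5, MX1, OAS2, SAMD9L, GBP1, IFI44 and LAMP3), where 5.3% did. TPC-1 had 6 of 40 (IFITM1, IFITM2, UBA7, BST2, DDX60 and GBP2) against 6.28%, and FTC-133 had 6 of 44 (IFIT3, IFITM1, MX1, IRF1, GBP1 and GBP2) against 9.76%. Lower members at that fold were GBP2 and GBP3 in 8505C (5.86% of all genes), IFI16 and GBP3 in CAL-62 (10.7%), OASL in TPC-1 (5.25%) and none of 44 in FTC-133 (6.91%). LAMP3 and UBA7, MX1, IFITM1, GBP1 and GBP2 each reached the fold in the higher direction in more than 1 line. With 1 library per group these ratios have no replicate check within a line.

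**Figure D3:**
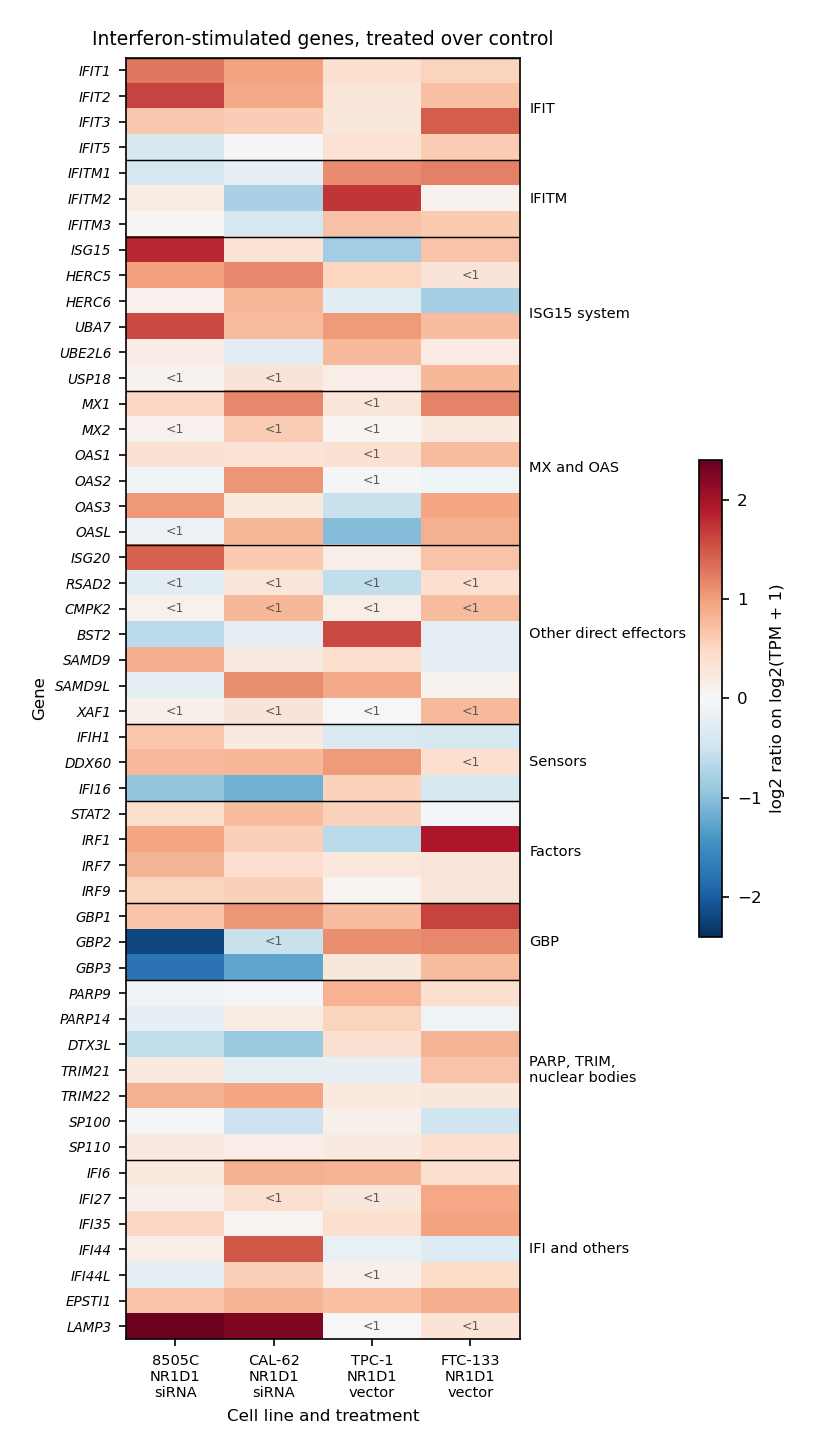
Log2 ratio of treated over control for each of the 50 members (rows, grouped by role) in each line (columns), with red for higher and blue for lower in the treated library. Cells marked <1 had a mean under 1 TPM in that line, and the IFIT1, IFIT2, IFIT3, UBA7, GBP1 and EPSTI1 rows are red in all 4 columns.

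Over all 4 lines the direction was shared more often than among other genes. Of the 47 members with a mean of at least 1 TPM over the 8 libraries, 20 were higher in the treated library of every line, which is 42.6% against 6.78% of 17595 genes. None of the 47 was lower in every line, against 8.75%. The 20 were IFIT1, IFIT2, IFIT3, HERC5, UBA7, USP18, MX1, MX2, OAS1, ISG20, DDX60, IRF7, IRF9, GBP1, TRIM22, SP110, IFI6, IFI27, IFI35 and EPSTI1. The same 20 were higher in every line after trimmed-mean scaling and with mitochondrial genes taken out before rescaling. The values as deposited also kept them. That is a weak check, since they differ from the main scale in the vector lines alone, where control and treated column sums were close. A pseudocount cannot change which library is higher, so its change is no check of the 20. Measured against the median gene of each line, 21 of 47 were higher in all 4, with LAMP3 added, against 9.28% of genes. LAMP3 was listed at 0 in both TPC-1 libraries, so it counted there only because the median gene lay below 0. In FTC-133 it rested on 1 and 5 reads. Among genes measured in each of the 4 lines it was 13 of 35 (37.1%) against 6.32%. For 7 of the 20, namely IFIT1, IFIT2, IFIT3, UBA7, DDX60, GBP1 and EPSTI1, the 95% interval of the ratio from recovered reads lay above 1 in every line. These intervals cover counting error only. The share of all genes with such intervals was not counted, so the 7 describe these members alone. A further 11 members (23.4%) were higher in 3 lines, 12 (25.5%) in 2 and 4 (8.51%; OAS2, BST2, IFI16 and SP100) in 1. Of all genes 19.7% were higher in 3 lines, 32.0% in 2 and 30.6% in 1, so the share for 3 lines was near that of all genes. By label, the treated library is the one with less NR1D1 in the siRNA lines and the one with more NR1D1 in the vector lines.

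No member passed a test over all genes. Limma with a term for each cell line, adjusted by the Benjamini-Hochberg method over 17595 genes, called 0 genes (0.0%) in the siRNA comparison, the vector comparison, the difference between them and the comparison of treated against control over all 4 lines. At an unadjusted p under 0.05, 10 of 47 members were higher and 4 lower in the siRNA comparison, where 4.59% and 7.68% of all genes were. The vector comparison had 6 higher and 0 lower, against 2.83% and 1.57%. Treated against control over all 4 lines had 13 higher and 0 lower, against 4.74% and 4.95%. The smallest adjusted p of a member was that of LAMP3 in the siRNA comparison (0.161), of IFITM1 in the vector comparison (0.569) and of LAMP3 over all 4 lines (0.32). The lines are the only repeats of these comparisons, so their p-values measure the spread between lines.

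The IFIT genes form a cluster on chromosome 10 and encode proteins that bind foreign RNA and block its translation. IFIT1 was 22.8 TPM in 8505C control cells and 56.5 after the siRNA, 4.47 and 9.71 in CAL-62, 8.68 and 11.8 in TPC-1, and 8.06 and 12.2 in FTC-133. It was higher in each treated library, with log2 ratios of 1.27, 0.97, 0.4 and 0.54. Its mean log2 ratio was 1.12 (SE 0.27) over the siRNA lines (limma adjusted p = 0.252) and 0.8 (SE 0.19) over all 4 (limma adjusted p = 0.394). IFIT2, its neighbour, was 29.6 and 93.5 in 8505C, 5.36 and 11.1 in CAL-62, 15.9 and 19.7 in TPC-1, and 11.5 and 19.6 in FTC-133. The 8505C ratio of IFIT2, 3.16 (counting interval 2.87 to 3.49), was the widest of the cluster. IFIT3, which binds IFIT1 and stabilises it, was 56.2 and 88.3, 8.78 and 13.7, 27.9 and 34.1, and 25.7 and 71.6 in the same order. Its highest ratio fell in FTC-133, at 2.79 (2.44 to 3.2), where that of IFIT1 was 1.51 (1.23 to 1.86). IFIT5 differed from the other 3, with log2 ratios of -0.39 and -0.04 after the siRNA and 0.35 and 0.61 with the vector. Its CAL-62 value was 0.17 after trimmed-mean scaling and 0.36 without mitochondrial genes. Its control level spanned 2.46 in FTC-133 to 47 in 8505C.

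The IFITM genes sit side by side on chromosome 11 and had the highest mean over the 4 control libraries, which 8505C carried. In FTC-133 control cells IFI6 and BST2 were above all 3. IFITM3 was 3131 and 3207 TPM in 8505C, 256 and 190 in CAL-62, 487 and 790 in TPC-1, and 59.2 and 91.6 in FTC-133. IFITM2 was 1654 and 1856, 94 and 54.4, 94.4 and 313, and 136 and 144. IFITM1 was 966 and 733, 106 and 89.9, 0.364 and 2, and 40.7 and 94.7. All 3 were lower after the siRNA in CAL-62 and higher with the vector in both vector lines. Without mitochondrial genes the CAL-62 log2 ratios were 0.18 for IFITM1, -0.38 for IFITM2 and -0.02 for IFITM3, so the sign for IFITM1 depended on the scale. In 8505C IFITM1 was lower, and the other 2 had log2 ratios of 0.17 and 0.03. The vector ratio of IFITM1 averaged 1.17 (SE 0.26, limma adjusted p = 0.569), but in TPC-1 it rested on 2 and 13 recovered reads. IFITM2 in TPC-1 rested on 854 and 2840 reads, a ratio of 3.32 (3.07 to 3.59). IFITM1 and IFITM2 share 351 exonic bases on one strand and are close paralogs, so the division of reads between them is uncertain.

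ISG15 is a ubiquitin-like protein that is attached to other proteins by the activating enzyme UBA7, the conjugating enzyme UBE2L6 and the ligase HERC5, and is removed by USP18. UBA7 was 11.7 and 37 TPM in 8505C, 10.3 and 18.1 in CAL-62, 4.91 and 11.1 in TPC-1, and 34.4 and 58 in FTC-133. It was higher in each treated library, with log2 ratios of 1.58, 0.75, 1.03 and 0.74. Over all 4 lines its mean was 1.03 (SE 0.22, limma adjusted p = 0.323), and after the siRNA it was 1.17 (SE 0.31, limma adjusted p = 0.259). HERC5 was 0.486 and 1.96 in 8505C, 7.89 and 18.7 in CAL-62, 15.5 and 22.6 in TPC-1, and 0.63 and 1.02 in FTC-133. Each treated library was above its control, with 10 and 48 reads in 8505C and 13 and 20 in FTC-133. ISG15 itself was 3.45 and 14.5, 4.44 and 5.81, 35.2 and 19.2, and 59.6 and 96. The treated library was higher in 3 lines and lower in TPC-1, with a ratio of 0.546 (0.426 to 0.695) there and of 4.2 (2.34 to 8.07) on 14 and 70 reads in 8505C. In TPC-1 the modifier was thus lower while its activating enzyme was higher. UBE2L6 had log2 ratios of 0.18, -0.27, 0.77 and 0.2, and USP18 had 0.09, 0.31, 0.16 and 0.8. USP18 rested on 5 and 7 reads in 8505C and on 7 and 10 in CAL-62. HERC6, a relative of HERC5, had 0.11, 0.8, -0.25 and -0.8.

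MX1 and MX2 are dynamin-like GTPases that trap viral components, and the OAS enzymes make the oligoadenylates that switch on RNase L. MX1 was 1.21 and 2.12 TPM in 8505C, 2.46 and 6.71 in CAL-62, 0.495 and 0.83 in TPC-1, and 11.7 and 28 in FTC-133. All 4 treated libraries were above their controls, by 2.73-fold (2.25 to 3.33) in CAL-62 and 2.39-fold (2.13 to 2.68) in FTC-133. In TPC-1 the counting interval, on 25 and 42 reads, was 0.999 to 2.87 and so included 1. OAS3 was 10.8 and 23.4 in 8505C, 9.72 and 11.6 in CAL-62, 21.7 and 14.6 in TPC-1, and 15.3 and 30.5 in FTC-133. OASL, a relative without enzyme activity that aids RIG-I, was 0.527 and 0.387, 0.95 and 2.38, 11.4 and 5.03, and 5.78 and 11.3. OAS2 was 2.96 and 2.76, 2.4 and 6.09, 0.0817 and 0.0544, and 31.6 and 29.3. These 3 genes differed, since OAS3 and OASL were lower in the treated library of TPC-1 and higher in that of FTC-133, and OAS2 was higher in CAL-62 alone. OAS1 was higher in each of the 4 lines, with log2 ratios of 0.37, 0.33, 0.36 and 0.76. In TPC-1 it was under 1 TPM on 6 and 16 reads. The counting interval of its ratio was 0.99 to 8.31 there and 0.989 to 1.98 in CAL-62, so both include 1. MX2 reached 1 TPM in FTC-133 alone, at 23.2 and 27.5. Its place among the 20 members higher in every line rested on few reads elsewhere, with 0 and 5 in 8505C, 4 and 44 in CAL-62 and 0 and 2 in TPC-1, and the CAL-62 level was 0.0429 and 0.579.

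Among other direct effectors ISG20, an exonuclease that degrades RNA, was 3.82 and 11.9 TPM in 8505C, 1.55 and 2.94 in CAL-62, 3.4 and 3.87 in TPC-1, and 0.709 and 1.76 in FTC-133. It was higher in each treated library, by 3.11-fold (2.54 to 3.83) in 8505C, but in TPC-1 the counting interval was 0.907 to 1.43. SAMD9L, which limits translation, was 6.8 and 5.66, 2.41 and 6.39, 1.53 and 3.76, and 2.23 and 2.41, so that CAL-62 and TPC-1 had the wide ratios. Its paralog SAMD9 had log2 ratios of 0.88, 0.22, 0.43 and -0.21. BST2 was 125 and 78.8 in 8505C, 180 and 152 in CAL-62 and 171 and 146 in FTC-133, lower in each treated library, though 0.17 higher on the log2 scale in CAL-62 without mitochondrial genes. In TPC-1 it was listed at 0 and at 2.01 with the vector, on 13 reads. RSAD2, CMPK2 and XAF1 had a mean under 1 TPM over the 8 libraries and entered no test. Their highest values were 0.903, 1.07 and 1.32.

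The sensors went in different directions. DDX60, a helicase that aids RIG-I, was 13.8 and 24.4 TPM in 8505C, 4.79 and 9.1 in CAL-62, 6.9 and 15.1 in TPC-1, and 0.103 and 0.468 in FTC-133. All 4 ratios were above 1, although FTC-133 had only 3 and 13 reads. IFI16, a nuclear DNA sensor, was 138 and 72.2 in 8505C, 65.2 and 28.6 in CAL-62, 59 and 86.8 in TPC-1, and 40.1 and 30.4 in FTC-133. Both siRNA libraries were thus below their controls, by 1.92-fold and 2.28-fold, and the mean log2 ratio was -1.05 (SE 0.32, limma adjusted p = 0.29). TPC-1 went the other way, with a ratio of 1.47 (1.39 to 1.56). IFIH1, the RNA sensor MDA5, had log2 ratios of 0.64 and 0.24 after the siRNA and of -0.36 and -0.39 with the vector.

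The transcription factors of the family were mostly higher. STAT2, IRF7 and IRF9 had log2 ratios of 0.42, 0.81 and 0.54 in 8505C and of 0.74, 0.4 and 0.58 in CAL-62. In TPC-1 they were 0.55, 0.26 and 0.04, and in FTC-133 -0.02, 0.29 and 0.29. IRF9 and IRF7, the DNA-binding subunit of ISGF3 and the main amplifier of interferon genes, were thus higher in all 4 lines by small amounts. In TPC-1 and FTC-133 the counting intervals of both ratios included 1, at 0.66 to 1.67 and 0.85 to 2.05 for IRF9. For IRF7 they were 0.974 to 1.53 and 0.95 to 1.63. IRF1, a factor that also acts at ISREs, was 10.2 and 20.4 TPM in 8505C, 3.83 and 6.16 in CAL-62, 32.9 and 20.7 in TPC-1, and 27.7 and 109 in FTC-133. Its ratio was 3.94 (3.67 to 4.24) in FTC-133 and 0.629 (0.58 to 0.683) in TPC-1, so the vector lines lay on opposite sides. IRF1 shares 1716 exonic bases with IRF1-AS1 on the other strand, and whether counting used strand was not stated. The antisense gene was at 2.16 TPM at most in the control libraries.

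The guanylate-binding proteins, GTPases that attack the vacuoles of pathogens, split within 1 cluster on chromosome 1. GBP1 was 4.43 and 7.68 TPM in 8505C, 4.61 and 10.7 in CAL-62, 14 and 24.2 in TPC-1, and 11.9 and 39 in FTC-133. It was higher in each treated library, by 1.03 on the log2 scale on average (SE 0.23, limma adjusted p = 0.342). GBP2 was 5.52 and 0.431 in 8505C, 0.829 and 0.26 in CAL-62, 5.69 and 13.6 in TPC-1, and 11.3 and 26.3 in FTC-133. It was 12.8-fold lower after the siRNA in 8505C on 149 and 14 reads and 3.18-fold lower in CAL-62 on 37 and 10, and more than 2-fold higher with the vector in both vector lines. GBP3 was 24.7 and 6.54, 14.4 and 5.47, 21 and 25.5, and 1.08 and 2.5. It was 3.77-fold lower in 8505C and 2.63-fold lower in CAL-62. The mean siRNA log2 ratio was -1.36 (SE 0.44, limma adjusted p = 0.307) for GBP2 and -1.51 (SE 0.31, limma adjusted p = 0.209) for GBP3. With the vector, GBP1 and GBP2 had mean log2 ratios of 1.19 (SE 0.33, limma adjusted p = 0.775) and 1.14 (SE 0.44, limma adjusted p = 1).

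PARP9, PARP14 and DTX3L act in ADP-ribosylation, with DTX3L as the ubiquitin ligase that pairs with PARP9. DTX3L had 86.4 and 56.9 TPM in 8505C, 64.4 and 34.4 in CAL-62, 66.2 and 86.1 in TPC-1, and 32.7 and 58.5 in FTC-133. It was lower after the siRNA and higher with the vector, and the siRNA mean was -0.74 on the log2 scale (SE 0.28, limma adjusted p = 0.366). PARP9, its divergent partner, had log2 ratios of -0.06, -0.05, 0.84 and 0.39, so the siRNA values of the pair differed, and PARP9 in CAL-62 was at 0.35 without mitochondrial genes. They share 217 exonic bases on opposite strands. PARP14 had log2 ratios of -0.19, 0.17, 0.54 and -0.09. TRIM22, a ligase with antiviral activity, was 1.95 and 4.35 in 8505C, 0.96 and 2.76 in CAL-62, 1 and 1.35 in TPC-1, and 7.42 and 9.2 in FTC-133. It was higher in each treated library, as was SP110, a nuclear body protein, at log2 ratios of 0.16 to 0.38. The counting interval included 1 for TRIM22 in TPC-1 (0.849 to 2.14). For SP110 it did so in 8505C (0.993 to 1.43) and CAL-62 (0.904 to 1.48). TRIM21, an antibody receptor of the cytosol, and SP100, which builds PML bodies, were mixed, at 0.24, -0.24, -0.19 and 0.69 and at -0.04, -0.5, 0.13 and -0.48.

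Of the remaining genes, IFI6, a small membrane protein that limits flavivirus replication, was 45.9 and 55.2 TPM in 8505C, 15.5 and 28.8 in CAL-62, 29.6 and 52.6 in TPC-1, and 253 and 331 in FTC-133. IFI35 was 22.8 and 32.3, 5.64 and 5.98, 20.5 and 27.2, and 30.3 and 59.8, and EPSTI1 was 8.42 and 14.2, 0.989 and 2.5, 0.554 and 1.56, and 4.88 and 9.82. All 3 were higher in each treated library, and EPSTI1 had a mean log2 ratio of 0.78 (SE 0.22, limma adjusted p = 0.412). The counting interval of the ratio included 1 for IFI35 in CAL-62 (0.756 to 1.48, on 80 and 69 reads) and for IFI6 in 8505C (0.985 to 1.47). IFI44 was 2.73 and 3.15 in 8505C, 15.4 and 45.1 in CAL-62, 7.45 and 6.43 in TPC-1, and 21 and 16.7 in FTC-133, so it passed 2-fold in CAL-62 alone, at 2.92 (2.49 to 3.42). IFI27 had log2 ratios of 0.12, 0.38, 0.27 and 0.92 and IFI44L had -0.24, 0.57, 0.12 and 0.44. IFI27 rested on 10 and 18 reads in CAL-62 and on 10 and 17 in TPC-1. LAMP3 was 15.7 and 84.3 in 8505C, 2.1 and 13.6 in CAL-62, listed at 0 in both TPC-1 libraries, and 0.061 and 0.321 in FTC-133. The siRNA ratios of 5.36 (4.7 to 6.13) and 6.49 (4.87 to 8.77) were the highest among the measured members of these lines. Their mean on the log2 scale was 2.29 (SE 0.33, limma adjusted p = 0.161). Of the genes listed as markers of other cell types, CD14 had log2 ratios of 1.88 and 2.72 in the same lines and COL1A1 had 1.89 and 2.93. The rest of those marker lists was mixed. In 8505C CD79A was 1.23 and 0.129, LUM 4.34 and 2.84 and PDGFRB 0.519 and 8.23, and PTPRC was at most 0.056 in any library. The part of these markers, or of cells that carry them, in the LAMP3 value was not tested.

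**Figure D4:**
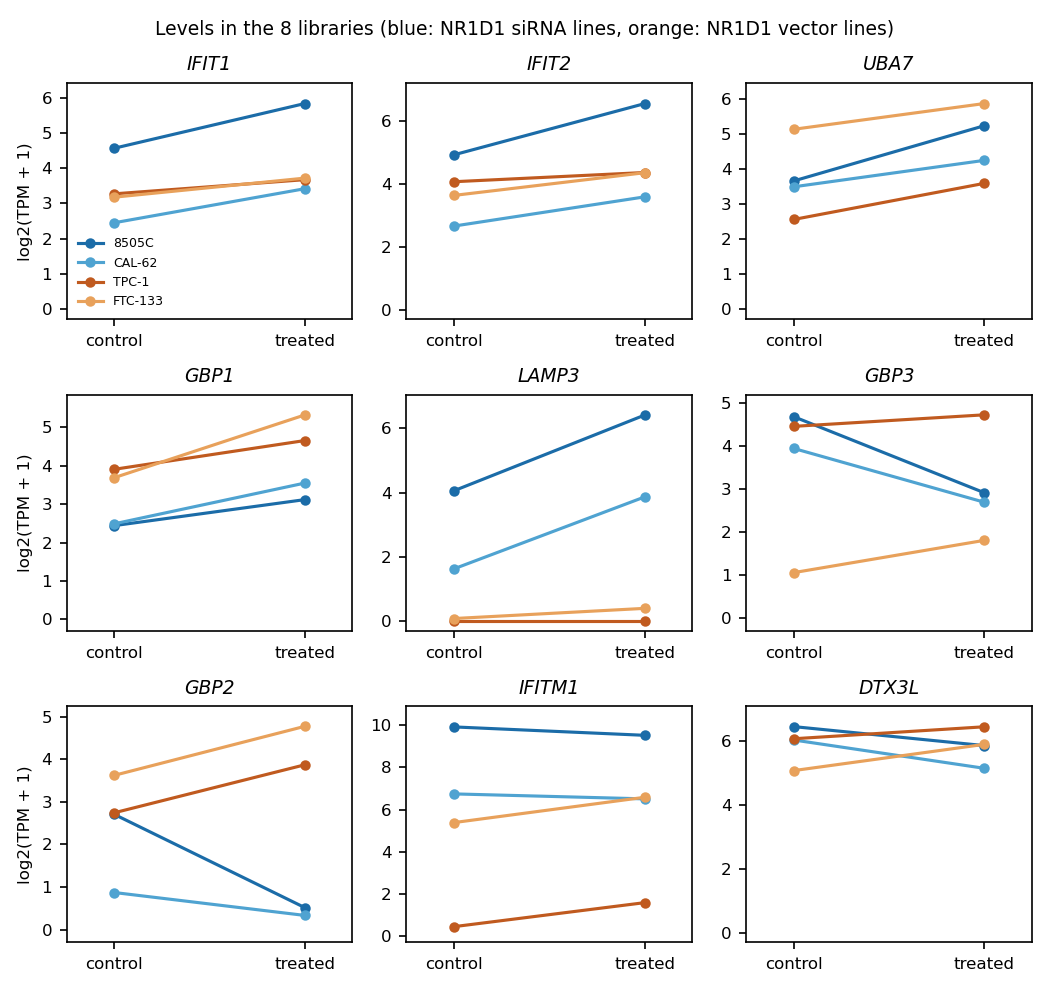
Level of 9 members in the control and the treated library of each line, as log2(TPM + 1), with lines joining the 2 libraries of a cell line. IFIT1, IFIT2, UBA7 and GBP1 slope upward in all 4 lines, LAMP3 in the siRNA lines from 15.7 to 84.3 and from 2.1 to 13.6, and GBP3, GBP2, IFITM1 and DTX3L downward in the siRNA lines and upward in the vector lines.

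Set against each other, the siRNA and the vector gave opposite signs for a minority of members. IFIT5, IFITM1, GBP2, GBP3, PARP9 and DTX3L were lower after the siRNA in both lines and higher with the vector in both lines, 6 of 47 (12.8%) against 6.26% of all genes. HERC6, IFIH1 and IFI44 had the reverse pattern, 3 of 47 (6.38%) against 3.83%. For IFIT5, PARP9, HERC6, IFIH1 and IFI44 the counting interval of the ratio included 1 in at least 1 line. Relative to the median gene of each line the first group shrank to IFITM1, GBP2, GBP3 and DTX3L, and with mitochondrial genes taken out before rescaling to GBP2, GBP3 and DTX3L. The difference of siRNA minus vector was -2.02 on the log2 scale for GBP3 (SE 0.44, limma adjusted p = 0.521), -2.5 for GBP2 (SE 0.62, limma adjusted p = 0.522) and -1.34 for DTX3L (SE 0.4, limma adjusted p = 0.624). LAMP3 had the widest difference in the other direction, 2.14 (SE 0.46, limma adjusted p = 0.521). None of these differences passed over all genes.

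**Figure D5:**
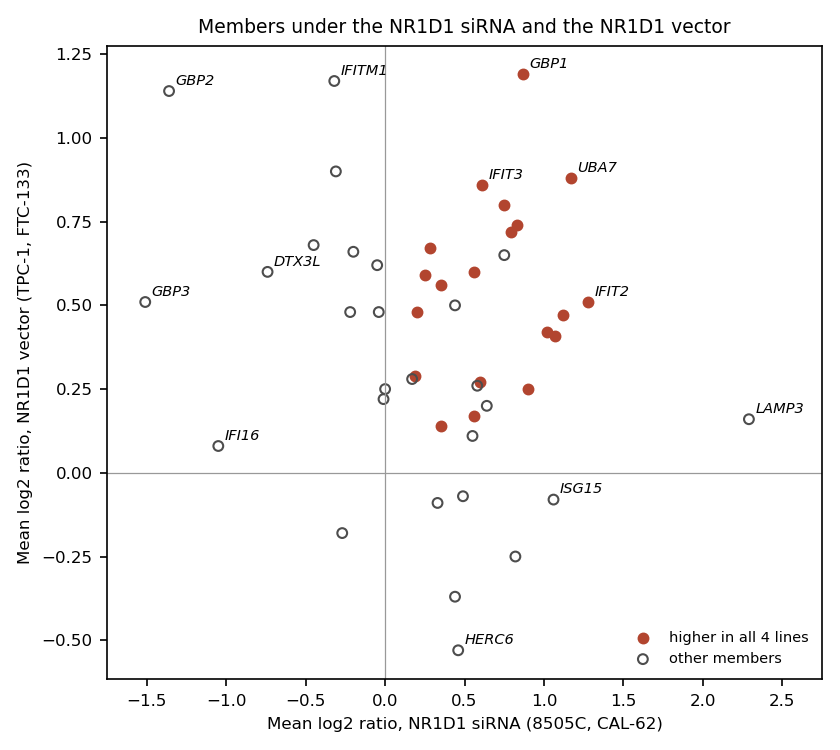
Mean log2 ratio of the 47 tested members after the NR1D1 siRNA (8505C and CAL-62, horizontal) and with the NR1D1 vector (TPC-1 and FTC-133, vertical), with the 20 members higher in all 4 lines filled. LAMP3 lies far right at 2.29, and GBP2 and GBP3 lie upper left at -1.36 and -1.51.

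Members with the ISRE letters and members without them were both on the higher side in every line. Members with the core letters had medians of 0.26, 0.28, 0.42 and 0.68 (log2 ratio, siRNA lines first), and members of the promoter table without them had 0.22, 0.33, 0.3 and 0.2. Genes outside the list that hold the letters had medians of -0.03, -0.32, -0.03 and 0.09, beside 0.03, -0.35, -0.04 and 0.04 for those without.

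The rest of the pathway was read from a list of 83 further genes, of which 64 were tested and 0 were called by limma in any comparison. At an unadjusted p under 0.05, 3 were higher and 1 lower in the siRNA comparison, beside 4.59% and 7.68% of all genes, and 4 were higher and 0 lower in the vector comparison, beside 2.83% and 1.57%. Most ligands were listed at 0 or lay under 1 TPM. IFNB1, interferon beta, was listed at 0 in 7 of 8 libraries and at 0.579 in FTC-133 with the NR1D1 vector, and IFNE, interferon epsilon, was the only ligand that entered the test, at 7.38 and 5.54 in 8505C, 19.8 and 13.3 in CAL-62, 2.08 and 1.04 in TPC-1, and 0 and 0.165 in FTC-133. IFNA1, an interferon alpha, was 2.58 and 2.77 in CAL-62 and at most 1.07 in the other lines. Among receptors IFNLR1, for type III interferons, had the largest ratio, from 0.828 to 3.72 in TPC-1. Of the kinases, JAK1 reached a log2 ratio of 0.92 in FTC-133.

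Downstream and regulatory genes of that list showed more spread. STING1, the adaptor of cytosolic DNA sensing, had log2 ratios of 0.62, 0.93, 0.45 and 0.65, while CGAS, the enzyme before it, was listed at 0 in 8505C. SOCS1, a brake on JAK signalling, had the widest ratio of the brakes, with 6.93 and 1.33 in TPC-1. APOL1 was 31.7 and 44.3 in 8505C, 5.66 and 16.8 in CAL-62, 21.9 and 60.4 in TPC-1, and 9.84 and 29.1 in FTC-133, higher in each treated library. In all, 11 of the 64 were higher in every line, beside 6.78% of all genes: RIGI, DHX58, STING1, PSMB9, PSMB10, PLSCR1, APOL1, APOL6, LGALS9, HELZ2 and PARP10. Some of these rested on low values or small steps. LGALS9 reached a mean of 1 TPM in FTC-133 alone, at 0.445 and 6.72. DHX58 was 0.0446 and 0.178 in TPC-1, and PSMB9 was 4.17 and 4.25 in CAL-62. GBP4 and GBP5, neighbours of GBP1, were 4.25 and 1.42 in FTC-133 control cells and 26.1 and 10.1 with the vector, and were under 1 TPM in the other lines. The chemokine genes CXCL9, CXCL10 and CXCL11 were listed at 0 in all 8 libraries.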

How the data were processed

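The 8 libraries were total RNA extracted with Trizol and prepared by a standard Illumina protocol, per the labels. FastQC, MultiQC, Trimmomatic 0.38 and featureCounts 2.0.0 with GRCh38 are named in the submitters' processing notes. In the sources used here, aligner, annotation, strand setting, siRNA sequences and harvest time are not given. The authors deposited TPM for 8505C and CAL-62, with columns summing to 1000000. The tables deposited for TPC-1 and FTC-133 are also named TPM, but their columns sum to 253330.3 to 261469.4 and match FPKM (value times GENCODE 29 exon length gives 1.001 to 1.005 times the FPKM total), so they were read as FPKM. All columns were rescaled to 1000000.

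Limma 3.58.1 in R 4.3.3 was fitted on log2(value + 1) for 17595 genes with a mean of at least 1, with a term for each cell line (2 residual degrees of freedom) and trended, robust variances, and was tested on simulated data. Libraries were paired by their shared cell line. The comparison over all 4 lines was added after seeing the data. Reads were recovered as value times exon length. Of values of 1 to 10 reads, 92.7% to 93.7% came out whole within 0.02, and of all recovered values 72.2% to 74.6% did. The 95% intervals of ratios (exact, binomial) use the recovered reads and cover counting error only. No depth is known otherwise. Members, roles, pathway list and tests were chosen with earlier results of these data known. A gene of the pathway list is not reported here. All 8 values are given for the 25 members with the largest ratio in any line and the 5 with the highest control mean. Alternatives were a pseudocount of 0.1, other filters and scalings, no cell-line term and leaving out each line.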

Additional observations from a re-analysis of the deposited data

Results flagged for a closer look

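For 9 members, the ratios of both siRNA lines lay on one side and those of both vector lines on the other. The difference of siRNA minus vector was tested by limma over 17595 genes, with Benjamini-Hochberg adjustment, and none passed. The difference on the log2 scale was -0.7 for IFIT5 (adjusted p = 0.77), -1.48 for IFITM1 (adjusted p = 0.522), -2.5 for GBP2 (adjusted p = 0.522), -2.02 for GBP3 (adjusted p = 0.521), -0.67 for PARP9 (adjusted p = 0.779) and -1.34 for DTX3L (adjusted p = 0.624). These 6 were lower after the siRNA and higher with the vector in both lines of each kind, but IFIT5, IFITM1 and PARP9 were higher in CAL-62 when mitochondrial genes were taken out. The other 3 ran the reverse way, at 0.98 for HERC6 (adjusted p = 0.733), 0.81 for IFIH1 (adjusted p = 0.742) and 1.07 for IFI44 (adjusted p = 0.733). Some of the ratios were within counting error, with an interval that included 1. These were PARP9 in 8505C (0.874 to 1.05) and CAL-62 (0.873 to 1.06) and IFIT5 in CAL-62 (0.83 to 1.13). The others were HERC6 in 8505C (0.878 to 1.36), IFIH1 in CAL-62 (0.989 to 1.49) and IFI44 in 8505C (0.662 to 2.04) and TPC-1 (0.628 to 1.19).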

How the results depend on the processing

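The count of 20 members higher in every line was 16 of 41 at a mean of at least 5 TPM (6.38% of all genes). It was 20 to 21 under the other settings (4.33% to 9.77% of all genes). Of these, only the scalings could change the direction of a gene. A pseudocount cannot do so, and a filter alters only which genes enter. With each line left out the count was 22 to 24 of 47 over 3 lines (8.72% to 13.1% of all genes). Asking for 3 lines in place of 4 cannot lower the count, so the latter is no check of it. CAL-62 depended most on the scale, because its median gene lay at -0.28, at -0.07 after trimmed-mean scaling and at 0.11 without mitochondrial genes. Its members 2-fold higher numbered 7 (5.3% of all genes), 12 at a pseudocount of 0.1 (7.99%), 4 at a mean of at least 5 (2.95%), 13 after trimmed-mean scaling (7.58%) and 23 without mitochondrial genes (15%), where 41 of 48 members and 56.4% of all genes were higher. Its members 2-fold lower numbered 1 after trimmed-mean scaling and 0 without mitochondrial genes. Its median log2 ratio was 0.24 at a mean of at least 5, 0.39 with no filter, 0.76 after trimmed-mean scaling and 0.86 without mitochondrial genes. The median in 8505C was 0.2 with no filter. Members 2-fold lower numbered 1 in 8505C at a mean of at least 5 and 1 in FTC-133 at a pseudocount of 0.1. With values as deposited TPC-1 had 1 member 2-fold higher and 0 lower, since unscaled values are smaller beside the pseudocount. Members lower after the siRNA and higher with the vector numbered 3 without mitochondrial genes, and 4.63% of all genes were so.

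At a mean of at least 5 limma called 143 genes in the siRNA comparison, among them LAMP3 (adjusted p = 0.021) and GBP3 (adjusted p = 0.0429), and 17 in the vector comparison, 17 in the difference and 43 over all 4 lines, with 0 members among these. With values as deposited the siRNA comparison called 53, LAMP3 among them (adjusted p = 0.0223). The cause was not tested. Leaving out each line gave 0 to 0 calls in all 4 comparisons. Without the pairing by line, the fit with no replicate block also called 0 genes in each, which leaves no call to compare. At an unadjusted p under 0.05 it had 159 genes against 2159 in the siRNA comparison, 94 against 774 in the vector comparison, 90 against 1194 in the difference and 121 against 1705 over all 4 lines, and the p of IFIT1 after the siRNA was 0.268 against 0.0046. No 2-fold ratio and no limma mean named in the text changed direction under any alternative. For the ratios, a pseudocount could not have changed it. However, 6 smaller CAL-62 ratios changed sign without mitochondrial genes (IFIT5, IFITM1, UBE2L6, BST2, PARP9 and TRIM21). Trimmed-mean scaling changed the sign of IFIT5 and PARP9 in CAL-62 and of IFITM3 in 8505C. At 1 library per group, depth limits genes of a few reads, such as IFITM1 and BST2 in TPC-1.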
